A study of Mus musculus with 7 samples.

Results

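Nucleotide supply for mitochondrial DNA synthesis was examined here through 10 genes, namely the ribonucleotide reductase subunits Rrm1, Rrm2 and Rrm2b, the deoxynucleoside kinases Tk1, Tk2, Dguok and Dck, thymidylate synthase (Tyms), and the degrading enzymes Tymp and Samhd1. Every probe set that the platform annotation gives to exactly 1 of these 10 symbols was taken, which found 25 probe sets among the 45101 on the array, for 9 of the genes. Tymp has none under this rule and was not analysed here, and 1 probe set annotated to both Tyms and its pseudogene was left out. The samples were quadriceps femoris muscle of 3 mice that overexpress mutant Twinkle, aged 24, 24 and 21 months, and of 4 wild-type mice aged 26, 24, 21 and 23 months, with 1 biotin-labelled Affymetrix array per mouse. By the labels these are biological replicates. The labels give no promoter for the transgene, no mutation and no strain. The free-text descriptions name cerebellum, whereas the titles and tissue entries name muscle. All 10 muscle fibre markers reached the brightest class used here, a log2 signal of 8 or more, and 0 of the 9 measured cerebellum markers reached it.

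Mitochondrial DNA is copied throughout life in non-dividing muscle fibres, and its synthesis depends on deoxynucleotides supplied to the organelle. Dividing cells make them with ribonucleotide reductase built of Rrm1 and the S-phase subunit Rrm2, and with the S-phase enzymes Tk1 and Tyms. Resting cells rely on Rrm1 with the p53-inducible subunit Rrm2b, and on the kinases Tk2 and Dguok inside mitochondria, which salvage pyrimidine and purine deoxynucleosides. Inherited loss of RRM2B, TK2 or DGUOK in humans depletes mitochondrial DNA, and loss of TYMP unbalances the pool. Twinkle is the helicase that opens mitochondrial DNA for replication, and its dominant mutations cause progressive external ophthalmoplegia with multiple deletions of this DNA, a disease that RRM2B mutations also cause.

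Each deposited number is a log2 distance from the median of its probe set over the 7 arrays, so the data show differences between arrays and no levels. A rough level class was read from the spacing of the deposited numbers, as the class of the lowest array. By this reading 1 member probe set (Tk2) lay at 8 or more, 14 lay between 4 and 8, and 10 lay between 2 and 4 in at least 1 array. In 14 of the 25 more than 1 array lay at exactly 0, as in 56.4% of all probe sets. The number of arrays limits the precision. The muscle was measured in bulk, so fewer cells of a type and less RNA per cell cannot be told apart.

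Several arrays stood apart irrespective of genotype. The first principal component held 51.3% of the variance and put mutant replicate 2 and wild-type replicates 1 and 4 (loadings 0.22 to 0.56) opposite the other 4 arrays (-0.57 to -0.08). In wild-type replicate 3 the Gapdh control was lower at its 5 prime than at its 3 prime end by a log2 value of -0.55, against at least -0.04 in the other 6 arrays, and its muscle fibre mean was lowest at -0.32. The 18S ribosomal RNA controls averaged 3.19 in mutant replicate 1, against -0.77 to 0.56 elsewhere. Wild-type replicates 1 and 2 were low in slow fibre genes, with means of -3.02 and -1.85 over 10 genes, against -0.10 to 0.73 elsewhere, and all 10 averaged higher in mutant muscle. All 8 endothelial markers also averaged higher there, at 0.03 to 0.19 in mutant and -0.34 to 0.08 in wild-type arrays. Fibroblast and adipocyte means were highest in wild-type replicate 3, at 0.85 and 1.12. Twnk, the gene of the transgene, ran from -0.15 to 0.44 in mutant and from -0.14 to 0.34 in wild-type muscle, so the groups overlapped (difference 0.04 ± 0.18, SE, limma adjusted p = 1.00). Detection of the transgene by this probe set was not tested.

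Nucleotide supply genes did not separate mutant from wild-type muscle at the threshold, and the member with the largest difference was Rrm2b. None of the 25 probe sets passed an adjusted p of 0.05 in limma, where 0 of all 45037 tested passed (0%). At an unadjusted p under 0.05 there was 1 member, an Rrm2b probe set, and 890 of all probe sets (1.98%). The groups overlapped in all 25 members. Of all probe sets 2.08% did not overlap, with mutant above wild type in 1.06% and below it in 1.02%. The mutant mean was higher for 17 members and lower for 8, with a median difference of 0.05. Over all probe sets 21339 were higher and 23692 lower, with a median of -0.01. The 25 probe sets come from 9 genes, of which 7 were higher and 2 lower. Leaving out 1 array turned the direction of 14 of the 25. The 95% interval of the difference included 0 for 24 of the 25. For 18 members it lay within 0.5 of 0 on the log2 scale, so larger differences lie outside it there.

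**Figure D1:**
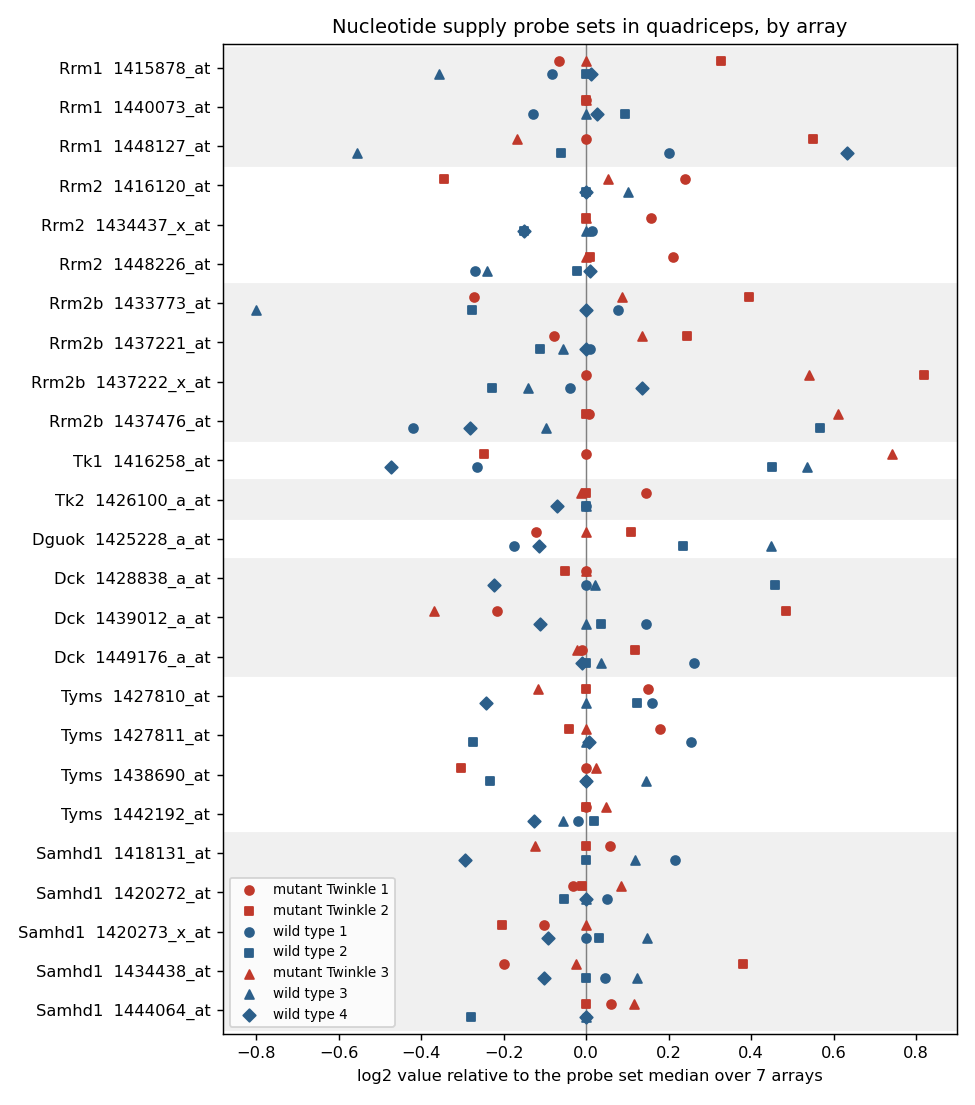
Log2 value of each member probe set relative to its median over the 7 arrays (x axis), with 1 row per probe set, 1 point per array, mutant Twinkle in red and wild type in blue, and the marker shape giving the replicate number. Red and blue points overlap in all 25 rows, and the points reaching farthest right are those of Rrm2b probe set 1437222_x_at in mutant replicate 2 (0.82) and of Tk1 in mutant replicate 3 (0.74).

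Rrm2b, the small reductase subunit of resting cells, measured higher on average in mutant muscle by all 4 of its probe sets, but mutant replicate 1 did not share this. As the mean of the 4, Rrm2b was -0.09, 0.36 and 0.34 in mutant replicates 1 to 3 and -0.09, -0.01, -0.27 and -0.04 in wild-type replicates 1 to 4. Mutant replicates 2 and 3 therefore lay above every wild-type array, while replicate 1 lay inside the wild-type range. The means were 0.21 ± 0.25 (SD, n = 3) and -0.10 ± 0.12 (SD, n = 4). This gave a difference of 0.31 ± 0.13 (SE) or 1.24-fold, with a 95% interval of 1.003-fold to 1.54-fold. It did not pass over all 18193 genes in limma (adjusted p = 1.00). The groups overlapped in all 9 member genes, and did not in 2.42% of all genes. The same gene-level difference ran from 0.23 without mutant replicate 2 to 0.46 without mutant replicate 1, and was 0.25 without wild-type replicate 3. It was 0.43 within the 3 arrays of positive loading on the first component and 0.27 within the other 4. Of the 25 member probe sets 12 had opposite directions within these 2 sides.

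The 4 Rrm2b probe sets differed array by array. The largest difference came from 1437222_x_at, whose suffix in Affymetrix naming marks probes that can match other transcripts. It measured 0.00, 0.82 and 0.54 in mutant arrays and -0.04, -0.23, -0.14 and 0.14 in wild type. Only wild-type replicate 4 lay above a mutant array, and that array was mutant replicate 1. The difference was 0.52 ± 0.20 (SE) or 1.43-fold (95% interval 1.05 to 1.97), with an unadjusted p of 0.0307 in limma and an adjusted p of 1.00. Without mutant replicate 2 it was 0.34.

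Probe set 1437221_at, designed from the same source sequence, measured -0.08, 0.24 and 0.13 in mutant and 0.01, -0.11, -0.06 and 0.00 in wild-type arrays. It followed 1437222_x_at across the 7 arrays (Pearson r = 0.97, a description over arrays that both share), but its difference was 0.14 ± 0.10 (SE). That was 0.068 without mutant replicate 2 and 0.23 without mutant replicate 1. Both lie in the dimmest class, between 2 and 4 in at least 1 array. The brighter 1433773_at measured -0.27, 0.39 and 0.09 against 0.08, -0.28, -0.80 and 0.00, a difference of 0.32 ± 0.24 (SE). Its lowest value was in wild-type replicate 3, the array with the low 5 prime Gapdh control, and without that array the difference was 0.14. The fourth probe set, 1437476_at, measured 0.01, 0.00 and 0.61 against -0.42, 0.57, -0.10 and -0.28. Here wild-type replicate 2 was nearly as high as mutant replicate 3, and without mutant replicate 3 the difference of 0.26 ± 0.26 (SE) was 0.06. Its r with the other 3 ran from -0.02 to 0.15.

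Rrm2b is a p53 target gene. The 14 measured genes of a p53 target list averaged 0.02, 0.14 and 0.03 in mutant and 0.16, 0.01, -0.25 and -0.13 in wild-type arrays. Of these, 9 were higher and 5 lower in mutant muscle, with a median difference of 0.13 and 0 past the adjusted threshold. Their lowest array, wild-type replicate 3, was also the lowest for the Rrm2b mean, and their highest, wild-type replicate 1, was not high for Rrm2b. The part of these genes, of RNA quality and of the 18S signal in the Rrm2b values was not tested.

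**Figure D2:**
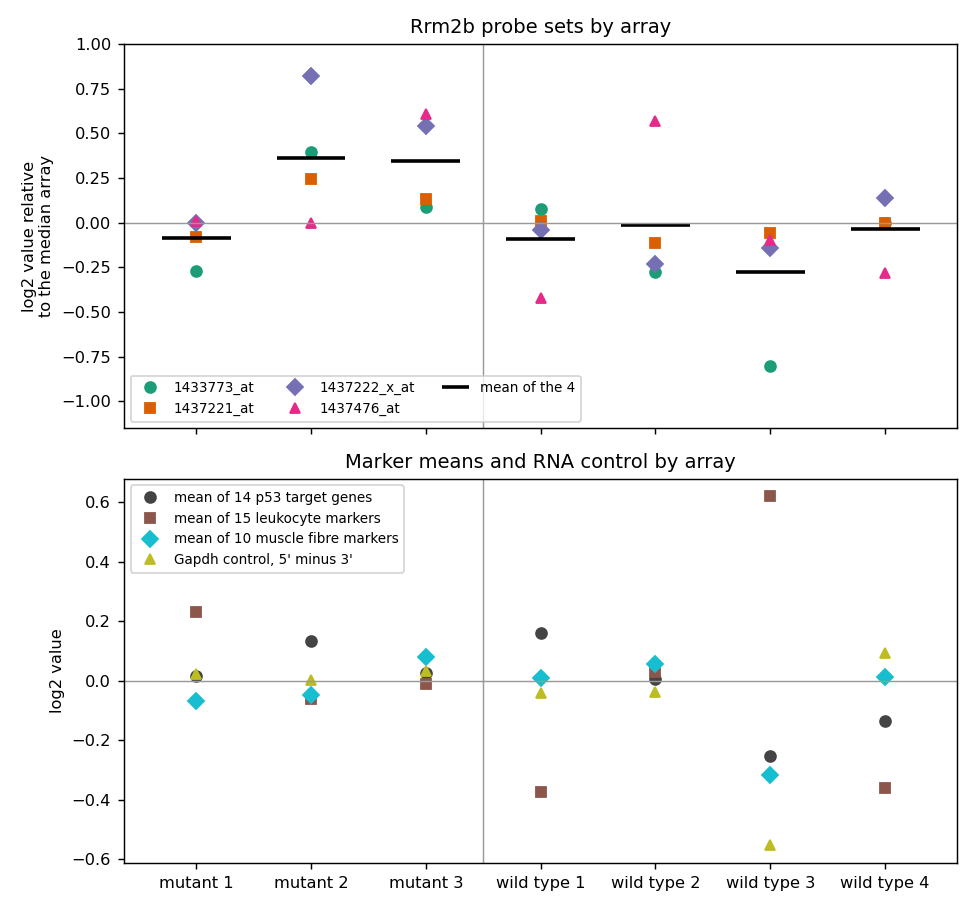
The upper panel shows the log2 value of the 4 Rrm2b probe sets in each of the 7 arrays with their mean as a black bar, and the lower panel the mean of the p53 target, leukocyte and muscle fibre lists and the Gapdh control (its 5 prime less its 3 prime value) in the same arrays (log2). The black bars of mutant replicates 2 and 3, at 0.36 and 0.34, lie above all 4 wild-type bars, and wild-type replicate 3 has the lowest bar at -0.27 together with the lowest Gapdh value at -0.55.

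Rrm1 encodes the catalytic subunit and Rrm2 the S-phase small subunit, whose mouse promoter is known for CCAAT boxes. Their RefSeq promoter windows (GRCm38.p6, 250 bases before to 50 after the start, written 5′ to 3′) are shown beside that of the mitochondrial kinase Tk2 so that a subunit of dividing cells can be set against an enzyme of resting fibres. Capitals mark matches on either strand to CCAAT, to the GC box GGGCGG or to TTTNNCGC, an E2F-like word, and no overlap between motifs occurred in these windows. Windows were found for Rrm1 (chr7:102441445-102441744, plus strand), Rrm2 (chr12:24708004-24708303, plus strand) and Tk2 (chr8:104248509-104248808, minus strand).
Rrm1: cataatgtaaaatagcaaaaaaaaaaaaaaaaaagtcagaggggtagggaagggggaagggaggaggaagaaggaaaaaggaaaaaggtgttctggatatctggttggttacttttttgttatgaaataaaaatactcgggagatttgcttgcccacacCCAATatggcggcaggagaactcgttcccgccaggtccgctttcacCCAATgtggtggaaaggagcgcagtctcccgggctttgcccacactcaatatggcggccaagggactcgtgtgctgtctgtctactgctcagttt
Rrm2: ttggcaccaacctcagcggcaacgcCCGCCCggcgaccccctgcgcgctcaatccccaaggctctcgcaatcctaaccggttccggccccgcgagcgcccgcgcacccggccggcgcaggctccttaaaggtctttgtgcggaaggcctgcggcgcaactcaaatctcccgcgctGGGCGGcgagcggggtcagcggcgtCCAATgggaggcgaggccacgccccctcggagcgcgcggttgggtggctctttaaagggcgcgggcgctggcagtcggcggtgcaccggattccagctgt
Tk2: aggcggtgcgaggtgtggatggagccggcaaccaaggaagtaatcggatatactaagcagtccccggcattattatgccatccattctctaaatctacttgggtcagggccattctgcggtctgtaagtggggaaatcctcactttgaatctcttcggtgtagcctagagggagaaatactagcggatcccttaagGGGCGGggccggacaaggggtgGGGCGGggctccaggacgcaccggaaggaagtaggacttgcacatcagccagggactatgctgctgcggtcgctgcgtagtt
The Rrm1 window holds 2 CCAAT matches, the Rrm2 window 1 CCAAT and 2 GC box matches, and the Tk2 window 2 GC box matches and no CCAAT match. Of all 32851 windows, 37.4% hold CCAAT, 35.7% hold GGGCGG and 5.2% hold TTTNNCGC. The last was found in the window of Tyms and not in those of Rrm1, Rrm2, Tk1, Tk2, Dguok, Dck, Tymp or Samhd1. No window was available here for Rrm2b, so its promoter was not searched. These matches are a description of the letters.

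As gene means, Rrm1 differed by 0.09 ± 0.14 and Rrm2 by 0.10 ± 0.09 (SE). Their probe sets differed from each other in size, and those of Rrm2 also in direction. The Rrm1 mean difference turned to -0.021 without mutant replicate 2 and to -0.0055 without wild-type replicate 3. The Rrm2 mean difference was 0.012 without mutant replicate 1. It was -0.045 within the 3 arrays of positive loading on the first component and 0.16 within the other 4. Rrm1 probe set 1415878_at measured -0.07, 0.33 and 0.00 in mutant and -0.08, 0.00, -0.36 and 0.01 in wild-type arrays, a difference of 0.19 ± 0.14 (SE). The highest value was again mutant replicate 2 and the lowest wild-type replicate 3, and without mutant replicate 2 the difference was 0.07. Probe set 1448127_at, designed from the same source sequence, measured 0.00, 0.55 and -0.17 against 0.20, -0.06, -0.56 and 0.63, a difference of 0.07 ± 0.29 (SE). Its highest array was wild-type replicate 4. The remaining one, 1440073_at, lay at exactly 0 in all 3 mutant arrays and at -0.13 to 0.09 in wild type.

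For Rrm2, probe set 1448226_at measured 0.21, 0.01 and 0.00 in mutant and -0.27, -0.02, -0.24 and 0.01 in wild-type arrays. The difference was 0.20 ± 0.11 (SE), or 1.15-fold (95% interval 0.97 to 1.37). Only wild-type replicate 4 overlapped the mutant arrays. Probe set 1416120_at, designed from the same source sequence, measured 0.24, -0.34 and 0.05 against 0.00, 0.00, 0.10 and 0.00, a difference of -0.04 ± 0.14 (SE). Both these Rrm2 probe sets lie in the dimmest class, between 2 and 4 in at least 1 array. In 1434437_x_at the difference was 0.12 ± 0.09 (SE). Mutant replicate 1 was the highest array in all 3 Rrm2 probe sets. Rrm2 follows cell division, and 15 measured genes of proliferating cells averaged 0.11 in that array, against -0.04 to 0.05 in the other 6. Of these 15 genes 8 had no probe set above the dimmest class. Mutant replicate 1 was also the array with the highest 18S controls (3.19). The part of dividing cells and of the 18S signal in the Rrm2 values was not tested.

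The mitochondrial kinases Tk2 and Dguok showed no difference beyond the spread of the arrays. Tk2, the thymidine kinase of mitochondria, was the only member probe set in the brightest class, at 0.14, 0.00 and -0.01 in mutant and 0.00, 0.00, 0.00 and -0.07 in wild-type arrays. Only mutant replicate 1 and wild-type replicate 4 lay off the others. The difference was 0.06 ± 0.08 (SE), or 1.04-fold with a 95% interval of 0.92 to 1.18, and was 0.012 without mutant replicate 1. Of the 7 arrays 4 lay at exactly 0. Dguok, the mitochondrial deoxyguanosine kinase, measured -0.12, 0.11 and 0.00 in mutant and -0.17, 0.23, 0.45 and -0.11 in wild-type arrays. The mutant values lay inside the wild-type range, and the difference was -0.10 ± 0.17 (SE), or 0.93-fold (0.71 to 1.22). It was 0.25 within the 3 arrays of positive loading and -0.40 within the other 4, so its direction was not the same on both sides, and without wild-type replicate 3 it was 0.014.

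The cytosolic kinases Tk1 and Dck overlapped as well. Tk1, the S-phase thymidine kinase, varied most among the members, with 0.00, -0.25 and 0.74 in mutant and -0.26, 0.45, 0.54 and -0.47 in wild-type arrays. Both groups ran from low to high, with SDs of 0.52 (n = 3) and 0.51 (n = 4). Its difference was 0.10 ± 0.33 (SE), with a 95% interval of 0.63-fold to 1.83-fold. Its 3 lowest arrays, mutant replicate 2 and wild-type replicates 1 and 4, were those of positive loading on the first component (mean -0.33, against 0.43 in the other 4). The difference was 0.12 within these 3 and -0.12 within the 4. Dck, the deoxycytidine kinase, had 3 probe sets, all between 2 and 4 in at least 1 array, with differences of -0.08 ± 0.16, -0.05 ± 0.20 and -0.04 ± 0.10 (SE). The extremes were 0.49 in mutant replicate 2 and -0.37 in mutant replicate 3, both in 1439012_a_at, so this gene's largest spread was within the mutant group.

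Tyms, which makes thymidylate, lay close to equal in both groups. Its 4 probe sets gave differences from -0.07 ± 0.13 (1438690_at) to 0.06 ± 0.07 (1442192_at, SE). The mean over the 4 was 0.08, -0.09 and -0.01 in mutant and 0.10, -0.09, 0.02 and -0.09 in wild-type arrays. The difference of this mean was 0.01 ± 0.09 (SE), or 1.01-fold (95% interval 0.88 to 1.16). A Tyms pseudogene is annotated on this array, and how far each probe set separates the gene from its copy was not tested.

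Samhd1, which cleaves deoxynucleotides and is abundant in myeloid cells, did not differ either. The mean of its 5 probe sets was -0.04, 0.03 and 0.01 in mutant and 0.06, -0.06, 0.08 and -0.10 in wild-type arrays, with all mutant values inside the wild-type range. The difference was 0.0045 ± 0.079 (SE), with a 95% interval of 0.88-fold to 1.14-fold. Single probe sets ran from -0.12 ± 0.09 (1420273_x_at) to 0.13 ± 0.10 (1444064_at). In 1444064_at 4 of 7 arrays lay at exactly 0, and wild-type replicate 2, at -0.28, was the only wild-type array off 0. Leukocyte markers (15 of 16 measured) averaged -0.06 to 0.23 in mutant and -0.37 to 0.62 in wild-type arrays, highest in wild-type replicate 3. Interferon-stimulated genes (10 of 12) averaged -0.18 to 0.39 in mutant, highest in replicate 1, and -0.09 to 0.14 in wild-type arrays. Their part in the Samhd1 values was not tested.

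**Figure D3:**
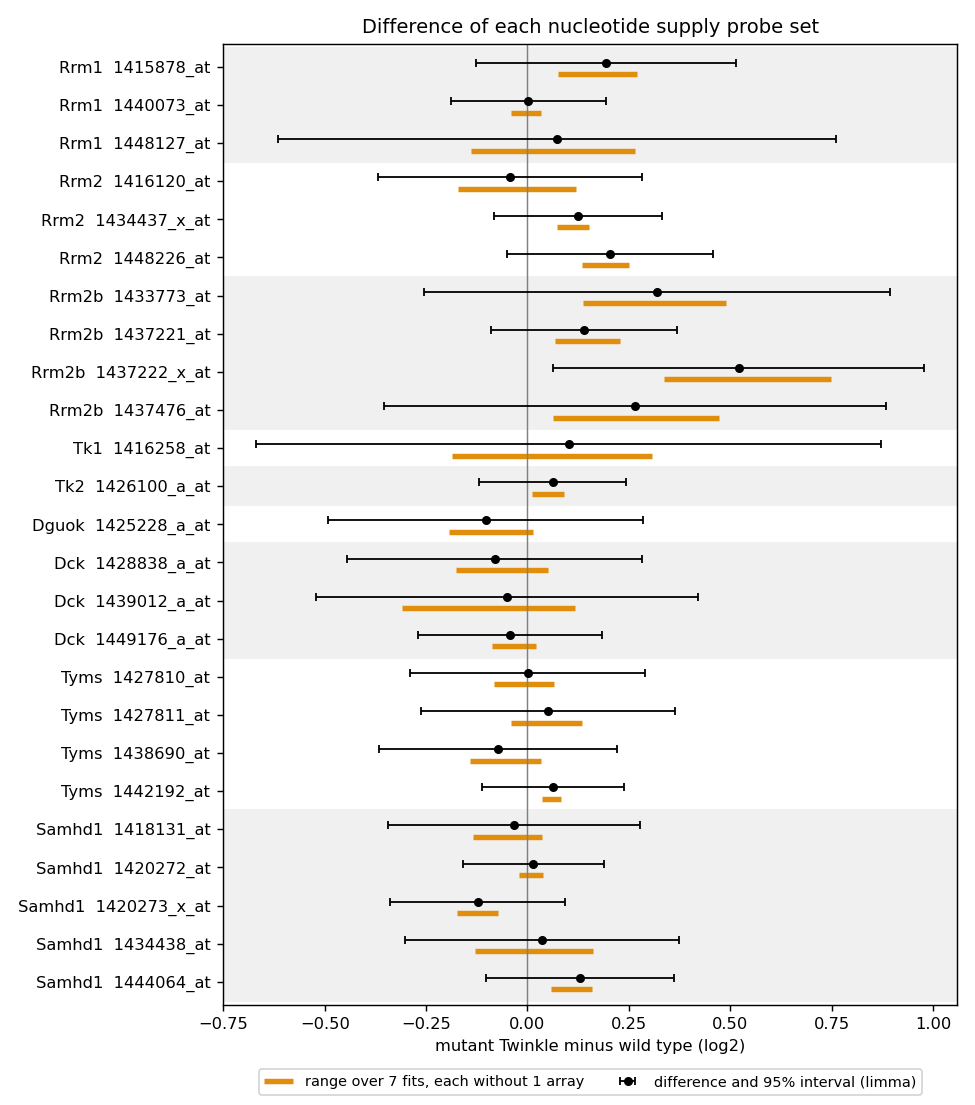
Mutant minus wild-type difference of each member probe set (log2, x axis) with limma's 95% interval in black, and in orange the range of the difference over 7 fits that each leave out 1 array. The interval lies above 0 in 1 row, Rrm2b 1437222_x_at (0.06 to 0.98), and the orange bar crosses 0 in 14 of the 25 rows.

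The wider nucleotide pathway was described with 5 lists of other genes, each gene taken as the mean of its probe sets. None of their genes passed in either direction in limma over all 18193 genes (0%), and 2 had an unadjusted p under 0.05 (1.59% of all genes did). In salvage, nucleotide kinases and nucleotidases, 28 of 31 genes were measured, 15 higher and 13 lower, with a median difference of 0.005. The median over all genes was -0.0093. The smallest p values there were those of Nme4, a mitochondrial nucleoside diphosphate kinase, at 0.27 ± 0.16 (SE), and of Nt5e, which removes phosphate from extracellular AMP, at -0.16 ± 0.10. The groups overlapped for each, and the differences were 0.16 without mutant replicate 1 for Nme4 and -0.095 without mutant replicate 3 for Nt5e.

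In mitochondrial nucleotide transport and genes of mitochondrial DNA depletion, 14 of 14 were measured, 7 higher and 7 lower, with a median of 0.01. Mpv17l, a relative of the depletion gene Mpv17, measured -0.11, -0.09 and -0.07 in mutant and 0.00, 0.02, 0.44 and 0.11 in wild-type arrays. All mutant arrays lay below all wild-type arrays, as in 1.4% of all genes, and the difference was -0.23 ± 0.12 (SE). Without wild-type replicate 3 it was -0.13. Slc29a2, a plasma membrane nucleoside transporter, followed at 0.12 ± 0.10, and at 0.056 without mutant replicate 1. Purine synthesis had 14 of 15 genes measured, 7 higher and 7 lower, with a median of -0.0023. Atic, which completes the purine ring, measured 0.20, 0.27 and 0.04 in mutant and 0.04, -0.05, -0.12 and 0.00 in wild-type arrays. The lowest mutant array lay just above the highest wild-type array, as in 1.03% of all genes, and the difference was 0.21 ± 0.09 (SE, adjusted p = 1.00). Adss, an enzyme of AMP synthesis, differed by -0.21 ± 0.14, and by -0.083 without wild-type replicate 3. Of 5 pyrimidine synthesis genes 3 were higher and 2 lower (median 0.02), with Ctps2 at -0.06 ± 0.09 and Umps at 0.02 ± 0.07. Without wild-type replicate 3 Ctps2 was at -0.011, and without wild-type replicate 4 Umps was at -0.00056.

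Among the folate enzymes that feed thymidylate and purine synthesis, 9 of 11 were measured, 3 higher and 6 lower, with a median of -0.01. Mthfd2, the mitochondrial methylenetetrahydrofolate dehydrogenase, stood far from the others. It measured 2.00, 0.94 and 0.46 in mutant and -0.14, -0.58, -0.35 and -0.46 in wild-type arrays. Its mutant arrays all lay above all wild-type arrays, as in 1.03% of all genes. Its difference of 1.52 ± 0.33 (SE) did not pass either (limma adjusted p = 1.00). With 1 array left out it ran from 1.08 without mutant replicate 1 to 1.85 without mutant replicate 3. Fpgs, which adds glutamate to folate, differed by -0.23 ± 0.12, and by -0.10 without mutant replicate 2.

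**Figure D4:**
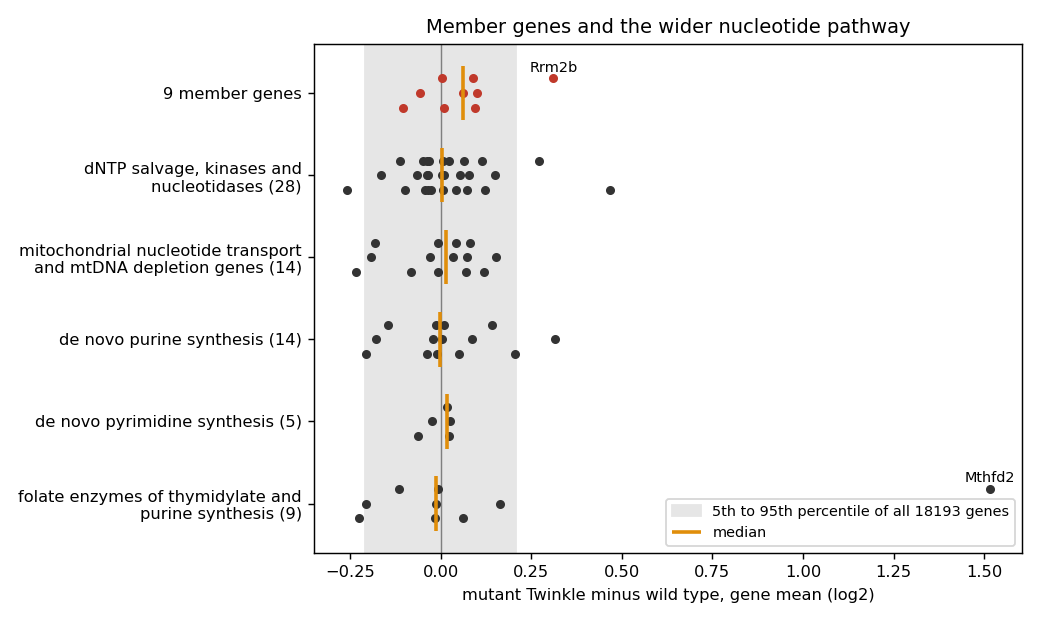
Mutant minus wild-type difference (log2, x axis) of the 9 member genes in red and of the genes of 5 other nucleotide pathway lists in dark grey, with the median of each in orange and the range from the 5th to the 95th percentile of all 18193 genes as a band. Rrm2b (0.31) is the only member gene right of the band, and Mthfd2 (1.52) is the farthest point of all lists.

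The genes whose values ran most like those of 3 members were looked up by Pearson r over the 7 arrays, as a description of shared arrays. For Rrm2b (1433773_at) these were Rfx7 (r = 0.997), Tgfb2 (0.991) and Clip1 (0.991), out of 19993 probe sets compared. All 3 had their lowest value in wild-type replicate 3, at -1.39, -1.14 and -1.71, and their highest in mutant replicate 2. For Tk2 they were Xlr4c (0.997), Bicd2 (0.994) and Trhde (0.993), each with at least 3 arrays at exactly 0. For Samhd1 (1418131_at) they were Rnf149 (0.982), Kif3b (0.973) and Mxd1 (0.959), each highest in wild-type replicate 1 and lowest in wild-type replicate 4.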

How the data were processed

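Quadriceps RNA of 3 mutant Twinkle and 4 wild-type mice was measured on 1 Affymetrix array each, from cRNA made of 5 ug total RNA, per the labels' protocols. The authors deposited log2 values centred on each probe set's median (exactly 0 in all 45101), read so from the values. The submitters' processing notes name GCOS 4.0, and the summary and scaling steps are not given in the sources used here. The log base and a rough level class were taken from how finely the single-precision values are spaced.

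Groups and replicate numbers came from the titles. Gene symbols came from the platform annotation (34958 with 1 symbol, 932 with several, 9211 unnamed), with symbols updated by Entrez identifier for 34754. The 64 control probe sets were left out. The other 45037 were fitted in R 4.3.3 using limma 3.58.1 (lmFit, then eBayes, without covariate or filter), two-sided, with Benjamini-Hochberg adjustment over all of them at a threshold of 0.05. Intervals are limma's 95% intervals. Gene values are means over a gene's probe sets, fitted likewise over 18193 genes. The fit was tested on simulated data. All member probe sets are reported, and of each pathway list the 2 genes with the smallest p are named, as are, for Rrm2b, Tk2 and Samhd1, the 3 most alike. The members and lists were chosen with earlier results of these data known. Alternatives were gene-level means, quantile normalization of the centred values, a level filter, robust empirical Bayes and age or slow fibre mean as a covariate. Others were a replicate block, each array left out, and wild-type replicates 1 and 2 left out. Chosen after seeing the data were a block for the side of the first principal component and each array left out for named pathway genes. The labels name no pairing, so the numbers were not taken as pairs. After group means were removed, same-numbered mutant and wild-type arrays correlated at r = -0.48, -0.31 and 0.15, too few values to decide on pairing.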

Additional observations from a re-analysis of the deposited data

Results flagged for a closer look

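In 3 of the 25 member probe sets the 4 wild-type arrays held 1 that lay apart, by Dixon's ratio of its gap to the range, a check that chance passes in about 1 of 20 groups. For Rrm2 (1416120_at) this was wild-type replicate 3 at 0.10, for Tk2 wild-type replicate 4 at -0.070 and for Samhd1 (1444064_at) wild-type replicate 2 at -0.28. In all 3 cases the other 3 wild-type arrays lay at exactly 0, so the ratio is at its maximum of 1 whatever the size of the gap. Ties at exactly 0 occurred in 56.4% of all probe sets.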

How the results depend on the processing

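No member probe set passed the threshold under any of the 17 alternatives, where the smallest adjusted p of a member was 0.810 in limma, and over the whole array 0 passed under each of them. The count of members whose groups do not overlap was 0 with all arrays, 0 to 3 with 1 array left out, and 2 with the replicate block, which drops wild-type replicate 4, or with wild-type replicates 1 and 2 left out (11% of all probe sets). It was 3 without mutant replicate 1 (all Rrm2b, 10%), 2 without mutant replicate 2 (10.3%), 1 without mutant replicate 3 (6.91%), 2 when wild-type replicate 2 was left out (4.36%) and 2 when replicate 4 of that group was (3.49%, the same as the block). Fewer arrays leave fewer chances to overlap. Of the 25 members 11 kept their direction under every alternative run, all 4 Rrm2b probe sets among them. Not all of these runs could turn a direction. Robust empirical Bayes and the level filter leave each difference unchanged, and the replicate block gives the same difference as leaving out wild-type replicate 4. With wild-type replicates 1 and 2 out, or the slow fibre mean as a covariate, the Rrm2b differences ran from 0.13 to 0.47 and from 0.15 to 0.51. The other 14 turned direction under at least 1 alternative. Their differences with all arrays ran from near 0 up to 0.10 for Tk1 1416258_at and -0.10 for Dguok 1425228_a_at. With quantile normalization, Rrm1 1440073_at was -0.0027, Rrm1 1448127_at was -0.10, Rrm2 1416120_at was 0.020, Tyms 1427810_at was -0.018 and Samhd1 1434438_at was -0.0098. With age as a covariate, Rrm1 1440073_at was -0.0054. With the slow fibre mean as a covariate, Rrm1 1440073_at was -0.020, Dck 1449176_a_at was 0.0076 and Samhd1 1418131_at was 0.029. Without wild-type replicates 1 and 2, Rrm1 1440073_at was -0.013, Dck 1428838_a_at was 0.084, Dck 1439012_a_at was 0.023, Dck 1449176_a_at was 0.016 and Samhd1 1418131_at was 0.065. With a block for the side of the first principal component, Rrm1 1440073_at was -0.0076, Tk1 1416258_at was -0.026, Dck 1439012_a_at was 0.0010 and Tyms 1427810_at was -0.010. With the replicate block, Tk1 1416258_at was -0.077, Tyms 1427810_at was -0.083 and Samhd1 1434438_at was -0.0044. Over the probe sets of the highest level class, Tyms gene was -0.011 and Samhd1 gene was -0.027. With 1 array left out, the difference ran for Rrm1 1440073_at from -0.040 to 0.034, Rrm1 1448127_at from -0.14 to 0.27, Rrm2 1416120_at from -0.17 to 0.12, Tk1 1416258_at from -0.19 to 0.31, Dguok 1425228_a_at from -0.19 to 0.014, Dck 1428838_a_at from -0.18 to 0.050, Dck 1439012_a_at from -0.31 to 0.12. It ran for Dck 1449176_a_at from -0.087 to 0.021, Tyms 1427810_at from -0.083 to 0.065, Tyms 1427811_at from -0.040 to 0.14, Tyms 1438690_at from -0.14 to 0.033, Samhd1 1418131_at from -0.13 to 0.036, Samhd1 1420272_at from -0.021 to 0.038, Samhd1 1434438_at from -0.13 to 0.16. The cause of these turns was not tested. The gene-level alternatives give no value per probe set. The number of arrays limits the precision of these values.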
